A study of Mus musculus with 16 samples.

Results

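The nuclear-encoded genes of oxidative phosphorylation were examined in cultured mouse alveolar type II cells held in high or ordinary oxygen. Genes were taken by name: those whose array annotation begins with Nduf, Uqcr, Cox4, Cox5, Cox6, Cox7, Cox8 or Atp5, plus Sdha, Sdhb, Sdhc, Sdhd, Cyc1 and Cycs. The rule found 92 genes, carried by 135 probes, among 34832 gene names on the array. Each gene was read from its brightest probe, and 89 of the 92 were tested among 25419 gene names that passed the filter on dim probes. The 89 comprised 36 complex I genes, 4 of complex II, 9 of complex III, cytochrome c and 17 of complex IV (12 standard subunits and 5 alternative isoforms). The rest were 15 genes of ATP synthase, 4 complex I assembly factors (Ndufaf1 to Ndufaf4) and 3 genes classed as not subunits (Cox4nb, Atp5s and Atp5sl). The 3 untested members, Cox7b2, Cox8b and Cox8c, are alternative isoforms that were not well above background on any of the 16 arrays. The choice of names used no measured value, whereas the choice of probe and the filter used the signal. The rule was set with earlier results of these data known.

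The cells were primary alveolar type II cells from C57BL/6 mouse lung. There were 4 groups with 4 one-colour Agilent arrays each: hyperoxia at 85% O2 for 24 h, normoxia at 21% O2 for 24 h, hyperoxia at 85% O2 for 6 h and normoxia at 21% O2 for 6 h. The labels do not say whether the 4 arrays of a group came from separate isolations, so the p-values below measure the spread between these samples, which may be technical. The animals' age and sex are not given in the labels.

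The respiratory chain passes electrons from NADH at complex I and from succinate at complex II to coenzyme Q, then through complex III and the carrier cytochrome c to complex IV, which hands them to oxygen. Complexes I, III and IV pump protons across the inner mitochondrial membrane, and ATP synthase, also called complex V, uses the return flow to make ATP. Type II cells make and secrete surfactant and divide to repair the alveolar surface. Excess oxygen is a known source of reactive oxygen species, with complexes I and III the classical sites of electron leak.

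Between 53.6% and 69.0% of probes per array were well above background, no spot was saturated, and the lowest correlation between replicates was 0.991. limma's array weights ran from 0.223 for hyperoxia 6 h replicate 3 to 3.53 for normoxia 6 h replicate 4, so the arrays were not equally precise. Each exposure time had a slide of its own, and effects of time and of slide cannot be told apart. Within a slide the hyperoxia arrays filled one row and the normoxia arrays the other, which likewise joins the oxygen effect to the position. Of 10 type II markers, 9 were well above background on at least 1 array of every group, Sftpc and Lamp3 included, and Slc34a2 was not on any array. By the same measure, markers of other cells were found in every group. These were 6 of 6 for fibroblasts and smooth muscle, 6 of 6 for macrophages, and 4 of 4 each for endothelial cells, neutrophils and lymphocytes. Of the 4 endothelial markers, 3 passed the filter on dim probes. For ciliated cells it was 3 of 3 in every group. For type I cells it was 5 of 6 in hyperoxia at 24 h and 6 of 6 in the other groups. For club cells it was 1 of 3 at 24 h and 2 of 3 at 6 h. The summed relative signal of the type II list was 29.3 to 36.4 in hyperoxia and 39.5 to 45.1 in normoxia at 24 h, and 56.2 to 80.4 in hyperoxia and 60.0 to 73.9 in normoxia at 6 h. That of the fibroblast and smooth muscle list was 1408 to 1536 in hyperoxia and 1543 to 1779 in normoxia at 24 h, and 841 to 1103 in hyperoxia and 896 to 1056 in normoxia at 6 h. The summed signal of 3 club cell markers was 0.979 to 1.17 in hyperoxia and 0.599 to 0.831 in normoxia at 24 h, and 22.7 to 46.1 in hyperoxia and 22.0 to 44.6 in normoxia at 6 h. The part of these cell types in the results over time was not tested. In a bulk sample, fewer cells of a type and less RNA per cell cannot be told apart.

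Levels are given as the log2 of the processed signal relative to the 75th percentile of the same array, called the log2 level below. They compare arrays for 1 probe and not different genes. Fold changes are differences of mean log2 levels with their standard error (SE), and a gene is called higher or lower where limma's Benjamini-Hochberg adjusted p over all 25419 genes was under 0.05.

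After 24 h of hyperoxia, 16 of the 89 members were higher and 4 were lower than in normoxia. Of all genes tested, 15.5% were higher, 12.8% lower and 28.3% called in either direction, against 22.5% of the members in either direction. Changes were small. The median log2 fold change was 0.05 over the members and 0.01 over all genes, and the median size, sign aside, was 0.10 for the members against 0.21 for all genes. For 85 of the 89 members the 95% confidence interval lay within 1.5-fold of no change in both directions, as it did for 58.5% of all genes. Only Cox6a2 passed a 2-fold difference. The values of the 2 oxygen groups at 24 h did not overlap for 34 members, 26 of them above and 8 below normoxia, and for 33.2% of all genes.

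**Figure D1:**
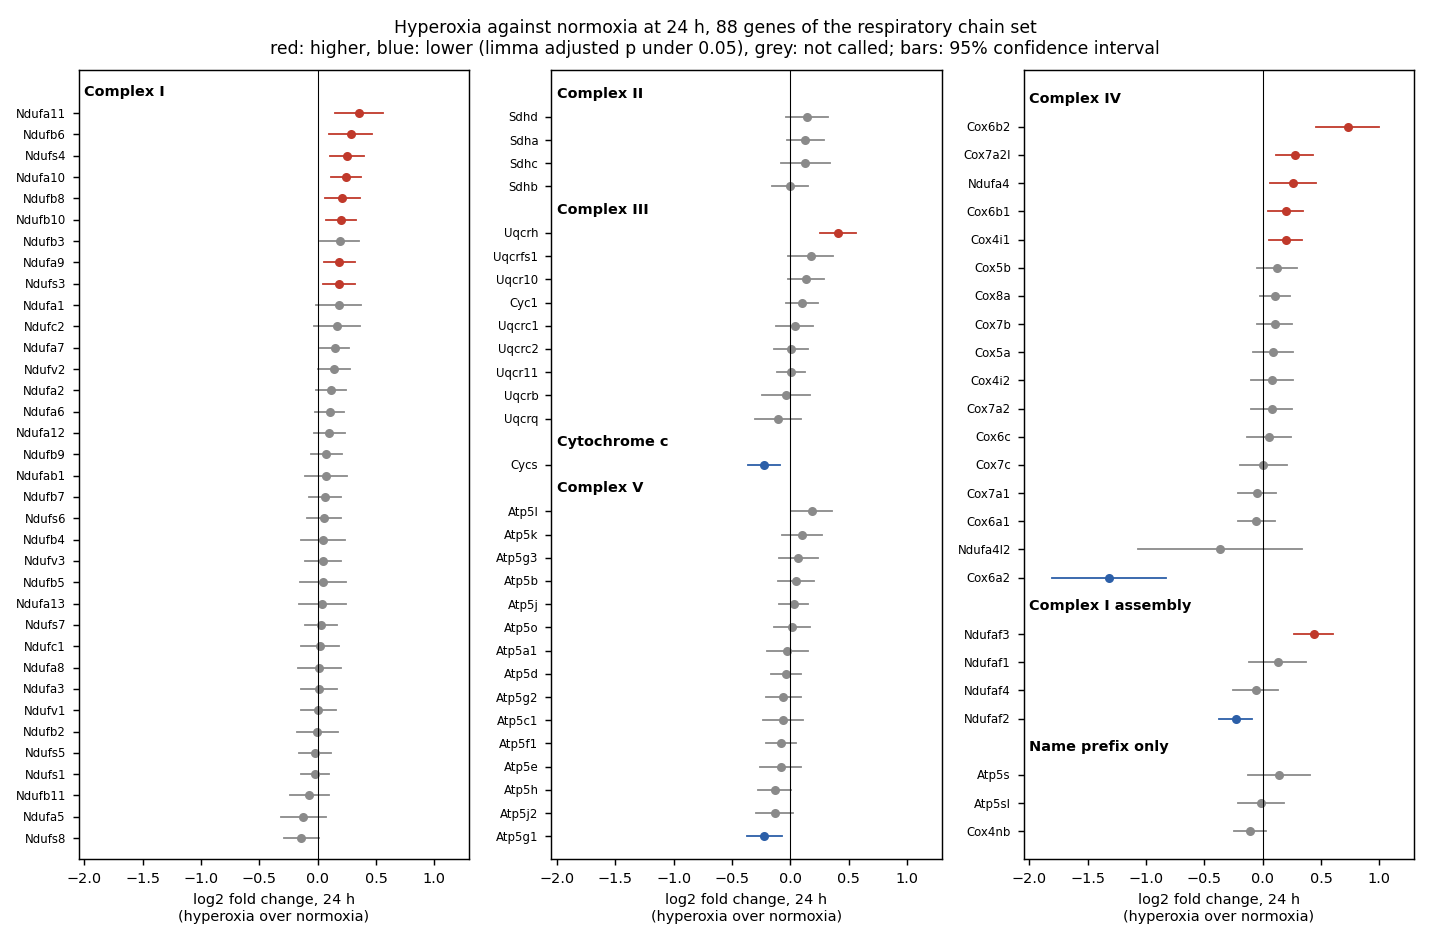
Log2 fold change of hyperoxia over normoxia at 24 h (horizontal axis) for 88 of the 89 members, grouped by complex, with 95% confidence intervals. The called complex I genes are all higher, the ATP synthase genes lie around 0 with Atp5g1 lower, and Cox6a2 at -1.32 and Cox6b2 at 0.73 mark the ends of the range.

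Promoter sequences are shown for 4 of the members that were higher at 24 h: an accessory subunit of complex I, the hinge subunit of complex III, and the ubiquitous and testis-type isoforms of one complex IV subunit. Each runs from 250 bases before to 50 after the annotated start and comes from RefSeq on GRCm38.p6, written 5′ to 3′ on the gene's strand, with any match to the motifs described below in capitals. They lie at chr17:56717512-56717811 on the plus strand (Ndufa11), chr4:116075021-116075320 on the minus strand (Uqcrh), chr7:30626065-30626364 on the minus strand (Cox6b1) and chr7:4753045-4753344 on the minus strand (Cox6b2).
Ndufa11: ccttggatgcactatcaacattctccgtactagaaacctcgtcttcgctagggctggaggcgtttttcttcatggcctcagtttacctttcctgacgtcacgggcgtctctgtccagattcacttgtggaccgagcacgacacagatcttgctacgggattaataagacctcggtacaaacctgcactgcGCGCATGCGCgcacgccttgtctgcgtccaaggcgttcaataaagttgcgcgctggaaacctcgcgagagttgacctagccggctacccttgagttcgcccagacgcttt
Uqcrh: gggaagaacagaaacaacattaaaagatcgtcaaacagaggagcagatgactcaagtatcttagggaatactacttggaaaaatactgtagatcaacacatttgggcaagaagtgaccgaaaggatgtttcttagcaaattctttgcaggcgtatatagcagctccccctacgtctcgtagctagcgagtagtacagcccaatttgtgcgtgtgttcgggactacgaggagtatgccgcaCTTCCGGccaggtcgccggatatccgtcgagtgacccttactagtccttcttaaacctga
Cox6b1: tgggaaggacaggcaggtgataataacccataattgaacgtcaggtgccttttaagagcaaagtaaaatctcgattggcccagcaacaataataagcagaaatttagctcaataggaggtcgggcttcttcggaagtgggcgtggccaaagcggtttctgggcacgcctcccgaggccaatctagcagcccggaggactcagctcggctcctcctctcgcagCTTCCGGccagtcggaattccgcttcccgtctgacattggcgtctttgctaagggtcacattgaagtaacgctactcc
Cox6b2: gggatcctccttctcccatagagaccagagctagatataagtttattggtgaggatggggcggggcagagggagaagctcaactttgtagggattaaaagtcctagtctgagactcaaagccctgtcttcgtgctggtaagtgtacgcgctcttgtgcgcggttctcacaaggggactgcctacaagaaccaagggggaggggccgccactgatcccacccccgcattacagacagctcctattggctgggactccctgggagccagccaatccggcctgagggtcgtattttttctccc

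The motifs searched, on both strands, were the palindrome of NRF1 (the capitals in the Ndufa11 promoter, with any base allowed at the fifth), CCGGAAG for ETS factors such as GABP, and AAGATGGC for YY1. These factors are known activators of nuclear genes for mitochondrial proteins. All 92 members were matched to RefSeq, 88 by accession and 4 by symbol, and 75 had a promoter in the table. An NRF1 match lay in 18 of the 75 members' promoters (24.0%) and in 5.19% of the 27025 genes with a promoter. An ETS match lay in 17 (22.7%), against 9.93%, and a YY1 match in 11 (14.7%), against 3.19%. At least 1 of the 3 was found for 40 members (53.3%), against 16.4% of all genes. The median G and C content was 58.33% in the members' promoters and 52.75% over all genes with a promoter. The part of base composition in these shares was not tested. The NRF1 letters stood in 6 of 14 ATP synthase promoters and 7 of 32 complex I promoters but 1 of 14 complex IV promoters. YY1 letters stood in 7 of 32 complex I promoters and in none of 14 for complex IV. Among the 4 promoters printed, Ndufa11 has an NRF1 match that begins at base -60 from the start, Uqcrh and Cox6b1 have an ETS match on the opposite strand that begins at bases -10 and -28, and Cox6b2 has none. Of the members higher at 24 h, 14 had a promoter, with an NRF1 match in 1, an ETS match in 4 and a YY1 match in 3. Of the members not called, 56 had one, with an NRF1 match in 17, an ETS match in 13 and a YY1 match in 8. The difference between these counts was not tested. A match is a run of letters and no measure of binding.

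Complex I, the NADH dehydrogenase, held 36 of the 89 members tested, and 9 of the 36 (25%) were higher at 24 h and none lower, against 15.5% and 12.8% of all genes. The median log2 fold change of its 36 genes at 24 h was 0.07. Ndufa11, an accessory subunit of the membrane arm, had log2 levels of 3.40, 3.49, 3.30 and 3.24 in hyperoxia and 3.01, 3.08, 2.83 and 3.11 in normoxia. Every hyperoxia array lay above every normoxia array, and the log2 fold change was 0.35 ± 0.10 (SE, n = 4 per group; limma adjusted p = 0.0131), or 1.28-fold. Ndufb6, another membrane-arm subunit, read 5.16, 5.23, 5.08 and 5.04 in hyperoxia and 4.94, 4.92, 4.71 and 4.81 in normoxia. Its log2 fold change was 0.28 ± 0.09 (limma adjusted p = 0.0244), again without overlap. A second Ndufb6 probe gave 0.14 (limma adjusted p = 0.295) in a fit of single probes. The Ndufb6 call was lost under normexp background correction and when its probes were averaged. Ndufs4, a small subunit needed for assembly of the electron input module and mutated in human Leigh syndrome, read 4.64, 4.69, 4.63 and 4.59 in hyperoxia and 4.35, 4.43, 4.33 and 4.44 in normoxia. It rose by 0.25 ± 0.07 (limma adjusted p = 0.0128).

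Of the 7 catalytic core subunits of complex I, 2 rose and none fell at 24 h, against 15.5% and 12.8% of all genes. Ndufs3, which lies in the arm that carries electrons to coenzyme Q, rose by 0.18, with a limma adjusted p of 0.0419, and of 0.0694 when replicate numbers were blocked within each time. Ndufs1 and Ndufv1, which carry iron-sulfur centres and the flavin at the NADH end, were not called. Ndufs1 had a log2 fold change of -0.03 (95% confidence interval -0.15 to 0.09) and Ndufv1 one of 0.01 (-0.14 to 0.15). The other accessory subunits that rose were Ndufa10, Ndufb8, Ndufb10 and Ndufa9, by 0.19 to 0.24, and 22 of 29 accessory subunits were not called. The call of Ndufa9 was lost in the blocked fit, with an adjusted p of 0.0536. Of 16 fits that each left out an array, 12 kept the call of Ndufb6, 12 that of Ndufb10, 10 that of Ndufb8, 10 that of Ndufa9 and 4 that of Ndufs3.

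Of the 4 complex I assembly factors Ndufaf1 to Ndufaf4, 1 rose at 24 h, 1 fell and 2 were not called, where 15.5% of all genes rose and 12.8% fell. Ndufaf3, which acts early in assembly and is not part of the finished complex, read 0.70, 0.89, 0.62 and 0.61 in hyperoxia and 0.24, 0.41, 0.19 and 0.23 in normoxia at 24 h. The groups did not overlap, and the log2 fold change was 0.44 ± 0.08 (limma adjusted p = 0.000611). At 6 h its values were 0.06, 0.19, -0.08 and 0.12 in hyperoxia and 0.16, 0.16, 0.12 and 0.19 in normoxia. These overlapped, and the effect at 24 h exceeded that at 6 h by 0.52 ± 0.11 (limma adjusted p of the difference 0.00607). Ndufaf2, a chaperone of late assembly, went the other way at 24 h: it read 2.82, 2.80, 2.84 and 2.89 in hyperoxia and 3.11, 3.09, 2.99 and 3.11 in normoxia. It fell by 0.23 on the log2 scale (SE 0.06, limma adjusted p = 0.0140). Ndufaf1 and Ndufaf4 were not called from their brightest probes.

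None of the 4 genes of complex II, succinate dehydrogenase, was called at 24 h, against 28.3% of all genes in either direction. Sdha, its flavin subunit, read 4.56, 4.64, 4.57 and 4.53 in hyperoxia and 4.40, 4.53, 4.42 and 4.42 in normoxia. The log2 fold change was 0.13 (95% confidence interval -0.03 to 0.29), with the lowest hyperoxia array level with the highest normoxia array to 2 decimals. Sdhb, the iron-sulfur subunit, had a log2 fold change of -0.0014 (-0.16 to 0.15). Sdhc and Sdhd, the membrane anchors, had values of 0.13 and 0.15.

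In complex III 1 of 9 genes was called at 24 h (11.1%), against 28.3% of all genes in either direction. Uqcrh, the hinge protein that sits beside cytochrome c1, read 6.64, 6.64, 6.53 and 6.54 in hyperoxia and 6.18, 6.17, 6.14 and 6.22 in normoxia at 24 h. The groups were clearly apart, at a log2 fold change of 0.41 ± 0.07 (limma adjusted p = 0.000545). A second Uqcrh probe gave 0.47 in a fit of single probes, although its mm9 position is on chromosome 2, away from the gene on chromosome 4. The redox-active subunits were not called: Uqcrfs1, the Rieske iron-sulfur protein, had a log2 fold change of 0.17 (95% confidence interval -0.02 to 0.37) and Cyc1, cytochrome c1, one of 0.10 (-0.03 to 0.23). The core protein Uqcrc2 had one of 0.01 (-0.14 to 0.15).

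Cytochrome c itself fell. Cycs, the somatic gene of the mobile carrier between complexes III and IV, which also triggers apoptosis when released, read 5.80, 5.83, 5.71 and 5.72 in hyperoxia and 6.01, 5.97, 5.97 and 5.99 in normoxia at 24 h. All 4 hyperoxia arrays lay below normoxia, and Cycs fell by 0.22 on the log2 scale (SE 0.06, limma adjusted p = 0.0163). Its 3 probes gave log2 fold changes of -0.22, -0.59 and -1.14 in the fit of single probes, each called lower. Without hyperoxia 24 h replicate 3 the Cycs call was at the threshold, with an adjusted p of 0.05.

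Complex IV, cytochrome c oxidase, held the largest change in each direction, both in tissue-restricted isoforms. Cox6a2, the form of subunit 6a typical of heart and skeletal muscle, read -0.57, -1.08, -0.57 and -0.70 in hyperoxia and 0.57, 0.36, 0.80 and 0.64 in normoxia at 24 h. The lowest normoxia array stood well above the highest hyperoxia array, and Cox6a2 fell by 1.32 on the log2 scale (SE 0.23, limma adjusted p = 0.000493). At 6 h it read -0.88, -0.98, -1.78 and -1.71 in hyperoxia and -0.86, -1.20, -1.60 and -1.75 in normoxia, which overlapped fully. The difference between the hyperoxia effects at 24 h and at 6 h was -1.34 ± 0.32 (limma adjusted p = 0.0136). Cox6a1, the ubiquitous form, had a log2 fold change of -0.06 at 24 h and was not called.

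Cox6a2 also had the largest change over time among the members. In normoxia it was higher at 24 h than at 6 h by 1.95 ± 0.23 (limma adjusted p = 3e-05), or 3.86-fold, and in hyperoxia by 0.61 ± 0.23 (limma adjusted p = 0.0366), the second a call kept in 11 of 16 fits that left out an array. The summed signal of the fibroblast and smooth muscle list, given above, was larger at the later time with either oxygen level. It was lower in hyperoxia than in normoxia at 24 h. The log2 fold changes of its 6 genes between the oxygen groups at 24 h ran from -0.307 to 0.566, and none was called. Over time they ran from -0.237 to 0.935 in normoxia and from 0.267 to 0.754 in hyperoxia, with 5 called higher in each. The part of that list in the Cox6a2 result was not tested.

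Cox6b2, the testis form of subunit 6b, read 0.05, 0.51, 0.10 and -0.07 in hyperoxia and -0.53, -0.42, -0.66 and -0.71 in normoxia at 24 h. Every hyperoxia array lay above normoxia, at a log2 fold change of 0.73 ± 0.13 (limma adjusted p = 0.000485), or 1.66-fold. At 6 h it read -0.61, -0.31, -0.70 and -0.47 in hyperoxia and -0.71, -0.54, -0.53 and -0.85 in normoxia, which overlapped. The effect at 24 h exceeded that at 6 h by 0.60 ± 0.18 (limma adjusted p = 0.0404), a call kept in 4 of 16 fits that left out an array. Cox6b1, the ubiquitous form, read 3.65, 3.71, 3.56 and 3.62 in hyperoxia and 3.47, 3.47, 3.29 and 3.52 in normoxia at 24 h. It rose by 0.20 ± 0.07 with a limma adjusted p of 0.0492, kept in 4 of 16 such fits.

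**Figure D2:**
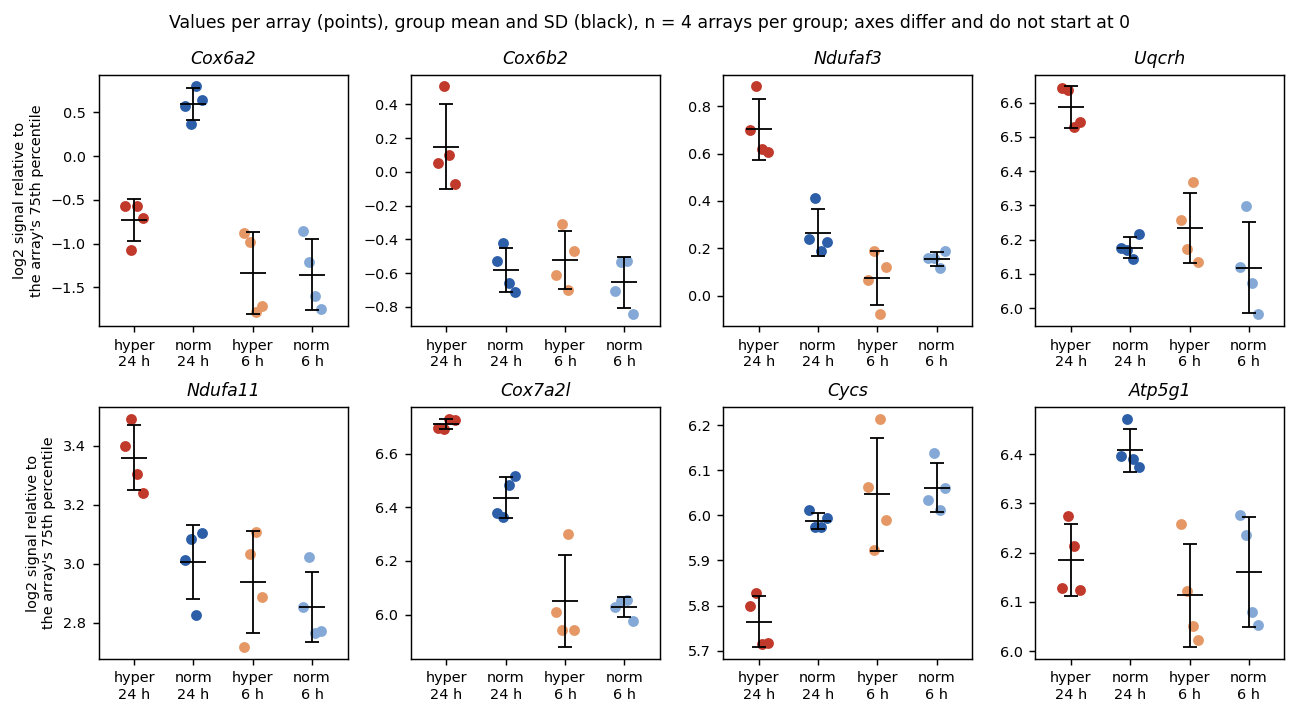
Log2 level on each array (vertical axis, relative to the array's 75th percentile) for 8 members in the 4 groups, with the group mean and SD (n = 4). Hyperoxia and normoxia stand apart at 24 h and overlap at 6 h in each panel, and Cox6a2 is high in normoxia at 24 h with values from 0.36 to 0.80.

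The standard subunits of complex IV moved little, with log2 fold changes from -0.06 to 0.27. Of the 12, 4 rose (33.3%) and none fell, against 15.5% and 12.8% of all genes. Cox7a2l, a factor that joins complexes III and IV into supercomplexes and of which C57BL/6 mice carry a shortened form, read 6.70, 6.69, 6.73 and 6.73 in hyperoxia and 6.38, 6.36, 6.48 and 6.52 in normoxia. Its values did not overlap, at a log2 fold change of 0.27 ± 0.07 (limma adjusted p = 0.0126). Ndufa4, first assigned to complex I and now placed in complex IV, rose by 0.26 ± 0.09 (limma adjusted p = 0.0475) from values of 5.57, 5.64, 5.40 and 5.42 in hyperoxia against 5.31, 5.31, 5.18 and 5.18 in normoxia. Cox4i1, the ubiquitous form of subunit 4, which tunes the activity of the complex to ATP, read 6.91, 6.98, 6.95 and 6.89 in hyperoxia and 6.75, 6.79, 6.60 and 6.79 in normoxia and rose by 0.20 ± 0.07 (limma adjusted p = 0.0354). The Ndufa4 call was kept in 5 of 16 fits that left out an array, and the Cox4i1 call in 11. With the replicate block, the adjusted p was 0.0624 for Ndufa4 and 0.0516 for Cox4i1. The isoforms tied to low oxygen were not called. Cox4i2, the lung form of subunit 4, read 0.18, 0.29, 0.35 and 0.45 in hyperoxia and 0.16, 0.25, 0.35 and 0.18 in normoxia, with a log2 fold change of 0.08 (95% confidence interval -0.10 to 0.26). Ndufa4l2, a target of hypoxia-inducible factor, had one of -0.37 with a wide interval of -1.07 to 0.34. Cox5a and Cox5b had log2 fold changes of 0.08 and 0.12, and Cox7a1, the muscle form of subunit 7a, one of -0.05; none of these was called.

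None of the 15 ATP synthase genes was called higher from its brightest probe at 24 h and 1 fell, against 15.5% and 12.8% of all genes, and the median log2 fold change was -0.03. For all 15 the 95% confidence interval lay within 1.5-fold of no change. The catalytic F1 subunits Atp5a1 and Atp5b had log2 fold changes of -0.02 (-0.20 to 0.15) and 0.05 (-0.10 to 0.20), and Atp5o of the peripheral stalk one of 0.02 (-0.14 to 0.17). Atp5g1, one of the genes that encode the identical subunit c of the rotor ring read 6.13, 6.27, 6.21 and 6.12 in hyperoxia and 6.40, 6.47, 6.39 and 6.37 in normoxia. It fell by 0.22 on the log2 scale (SE 0.07, limma adjusted p = 0.0281) without overlap. This call was lost under normexp, quantile normalization, median centring and in the authors' table, and without hyperoxia 24 h replicate 1 or 4 or normoxia 24 h replicate 1 or 2, with adjusted p-values up to 0.0774. A second Atp5g1 probe gave -0.17 (limma adjusted p = 0.102). The sister genes Atp5g2 and Atp5g3 had log2 fold changes of -0.06 and 0.07 and were not called. Atp5l, subunit g of the membrane part, read 6.64, 6.68, 6.64 and 6.60 in hyperoxia and 6.49, 6.43, 6.47 and 6.43 in normoxia. Its values did not overlap, yet the log2 fold change of 0.18 ± 0.08 did not pass the test (limma adjusted p = 0.113). Its 6 probes gave 0.15 to 0.24 in the fit of single probes, with 1 of them called higher (0.24, limma adjusted p = 0.0453).

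At 6 h limma called no member in either direction, with 0.236% of all genes higher, 0.0905% lower and 0.327% called in either direction. At an unadjusted p under 0.05 there was 1 member of 89, or 1.12%, against 7.38% of all genes. No member had groups without overlap, against 4.32% of all genes, and the median size of the log2 fold change was 0.03 against 0.09. With array quality weights 1 member was called lower. The test of the difference between the effects at 24 h and 6 h called 2 members higher, Cox6b2 and Ndufaf3, and 1 lower, Cox6a2, against 6.64% and 5.64% of all genes and 12.3% in either direction. For every other member, including Uqcrh (0.30 ± 0.10, limma adjusted p = 0.0747), the difference between the times did not pass the test from the brightest probe. In the fit of single probes, a dimmer probe passed for Uqcrh (0.38, limma adjusted p = 0.0222) and Ndufa3 (0.59, limma adjusted p = 0.00995). So did a dimmer probe of Cycs (-0.55, limma adjusted p = 0.00915) and of Ndufaf4 (-0.37, limma adjusted p = 0.00783).

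**Figure D3:**
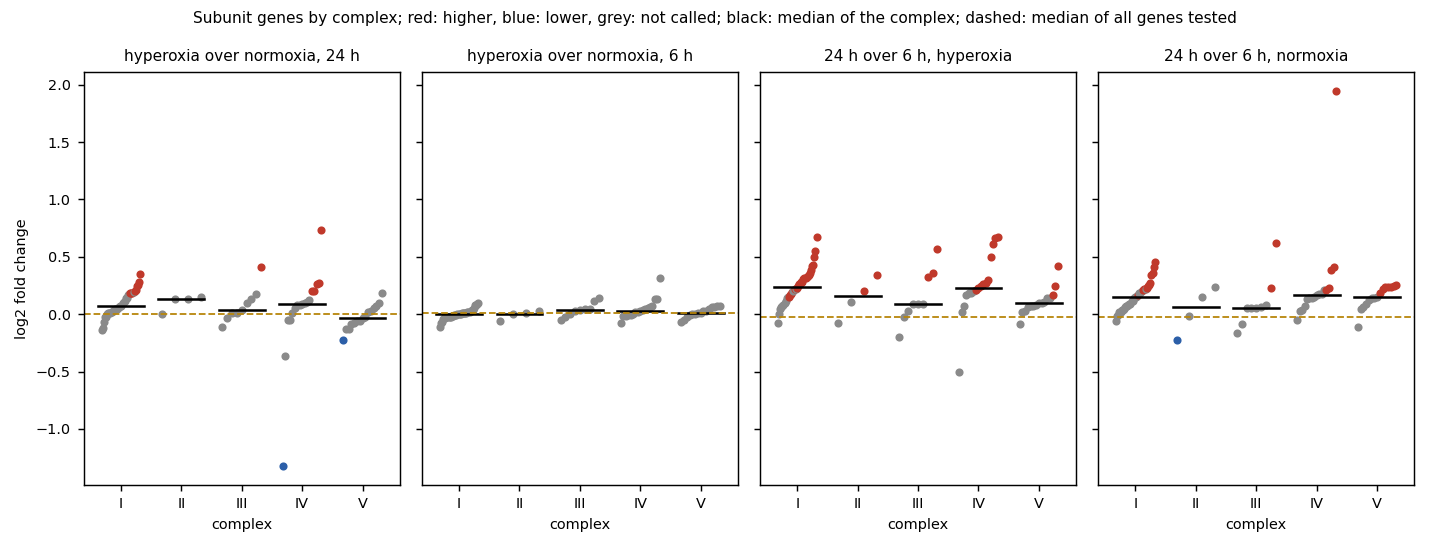
Log2 fold changes (vertical axis) of the complex I to V genes in 4 comparisons, with the median of each complex (black) and of all genes tested (dashed). Complex I medians are 0.07 at 24 h and 0.00 at 6 h for oxygen, and 0.23 in hyperoxia and 0.15 in normoxia over time.

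Most calls over time were upward, on arrays where slide and time changed together. In hyperoxia 44 were higher at 24 h than at 6 h and 2 were lower, with 25% of all genes higher, 27.3% lower and 52.3% called in either direction, and the median log2 fold change was 0.18 against -0.02 for all genes. In normoxia 26 were higher and 1 was lower, with 20.6%, 23.5% and 44.2% of all genes, and the median was 0.14 against -0.02. The members higher over time with either oxygen level numbered 20. Centring arrays on the median gave 79 higher and 0 lower in hyperoxia and 72 and 0 in normoxia, with the median of all genes then at 0.20 and 0.19. Quantile normalization gave 29 higher and 5 lower in hyperoxia, and 9 higher and 8 lower in normoxia, with member medians of 0.08 and 0.00.

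Ndufa6, Ndufa7 and Uqcrq were higher over time in both oxygen groups under every alternative run. So were Cox7a2l and Ndufv3 from their brightest probes, while a further Cox7a2l probe missed the threshold in normoxia (0.22, limma adjusted p = 0.0516). The other Ndufv3 probes disagreed over time. One gave 0.71 in hyperoxia and 0.57 in normoxia, both called. Another gave -0.06 in hyperoxia (limma adjusted p = 0.556) and -0.10 in normoxia (limma adjusted p = 0.285). Ndufa6, an accessory subunit of complex I, read 4.53, 4.53, 4.54 and 4.45 at 24 h and 3.95, 3.88, 3.79 and 3.74 at 6 h in hyperoxia. In normoxia it read 4.44, 4.41, 4.46 and 4.34 at 24 h and 3.98, 3.96, 3.99 and 3.88 at 6 h. The times did not overlap in either oxygen group, with log2 fold changes of 0.67 ± 0.06 in hyperoxia (limma adjusted p = 5.62e-07) and 0.46 ± 0.06 in normoxia (limma adjusted p = 5.07e-05). Uqcrq, a small subunit of complex III, had values of 0.57 ± 0.09 in hyperoxia and 0.62 ± 0.09 in normoxia. Cox7a2l had 0.66 ± 0.07 in hyperoxia and 0.41 ± 0.07 in normoxia. The exceptions that were lower at 24 h were Cycs (-0.28) and Ndufaf2 (-0.23) in hyperoxia and Sdhd (-0.23) in normoxia. Among ATP synthase genes the largest were Atp5l in hyperoxia (0.42 ± 0.08), and Atp5j2 and Atp5g1 in normoxia (0.25 ± 0.07 each). The Atp5j2 probe has its mm9 position on chromosome 9, while the gene is on chromosome 5, where the other Atp5j2 probe lies and gave 0.0072 in the fit of single probes.

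Probes of the same gene disagreed for a few members at 24 h, in a fit of single probes added after the data were seen. For Ndufa3 the brightest probe gave a log2 fold change of 0.01 and a second one 0.58 (limma adjusted p = 0.000311). For Ndufv3 the values were 0.04, 0.44 and 0.04, with the second called. For Ndufaf4 they were -0.06 and -0.48, with the second called lower. For Ndufb11 they were -0.07 and 0.24, with the second called higher (limma adjusted p = 0.0324). Ndufab1, the acyl carrier protein, had probes that moved opposite ways over time in normoxia, at 0.23 and -0.47. For these 5 genes the level of the whole gene is uncertain.

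The 13 subunits encoded in mitochondrial DNA build the cores of complexes I, III, IV and V. None of the 13 was called at 24 h, against 28.3% of all genes in either direction. Their median log2 fold change was 0.02, and the range ran from -0.36 for ND6 to 0.21 for ND1. Of the assembly factors outside the name rule, 6 of 26 rose and 2 fell at 24 h, where 15.5% of all genes were higher and 12.8% lower, with a median of 0.06. Sdhaf1, which helps load iron-sulfur clusters into complex II, rose by 0.47 ± 0.05 (limma adjusted p = 1.04e-05), Tmem70, an ATP synthase assembly factor, by 0.36 ± 0.07 (limma adjusted p = 0.00159), and Tmem186 by 0.32 ± 0.09 (limma adjusted p = 0.0131). Lrpprc, which stabilises mitochondrial mRNA, fell by 0.32 (SE 0.07) and Foxred1, a complex I assembly factor, by 0.31 (SE 0.07) on the log2 scale.

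Regulators of mitochondrial biogenesis were called in both directions at 24 h, with 5 of 18 higher and 7 lower, against 15.5% and 12.8% of all genes, and a median log2 fold change of -0.16. Ppargc1a, which encodes the coactivator PGC-1α, had a log2 level of -2.47 ± 0.09 in hyperoxia and -3.95 ± 0.29 in normoxia (SD, n = 4 each), a rise of 1.48 ± 0.26 (SE; limma adjusted p = 0.000584). Esrra, the orphan nuclear receptor ERRα that PGC-1α coactivates, rose by 0.57 ± 0.08 (limma adjusted p = 8.56e-05) and Yy1 by 0.42 ± 0.10 (limma adjusted p = 0.00716). The related coactivator Pprc1 fell by 0.55 on the log2 scale (SE 0.07, limma adjusted p = 2.91e-05), Gabpb2 fell by 0.44 (SE 0.09) and Polg, the mitochondrial DNA polymerase, fell by 0.42 (SE 0.06).

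Outside the naming rule, and singled out after their values were seen because their motifs were searched above, Nrf1 rose by 0.38 ± 0.06 (limma adjusted p = 0.000338), whereas the GABP subunits Gabpa and Gabpb1 fell by 0.39 (SE 0.12) and 0.33 (SE 0.06) on the log2 scale. The Nrf1 call was lost when all its probes were averaged (adjusted p = 0.0716). That of Gabpa was lost without hyperoxia 24 h replicate 1 or 4, or without normoxia 24 h replicate 1 or 2, with adjusted p-values up to 0.0859. At 6 h none of the 18 regulators was called, nor was any gene of the other lists given here.

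**Figure D4:**
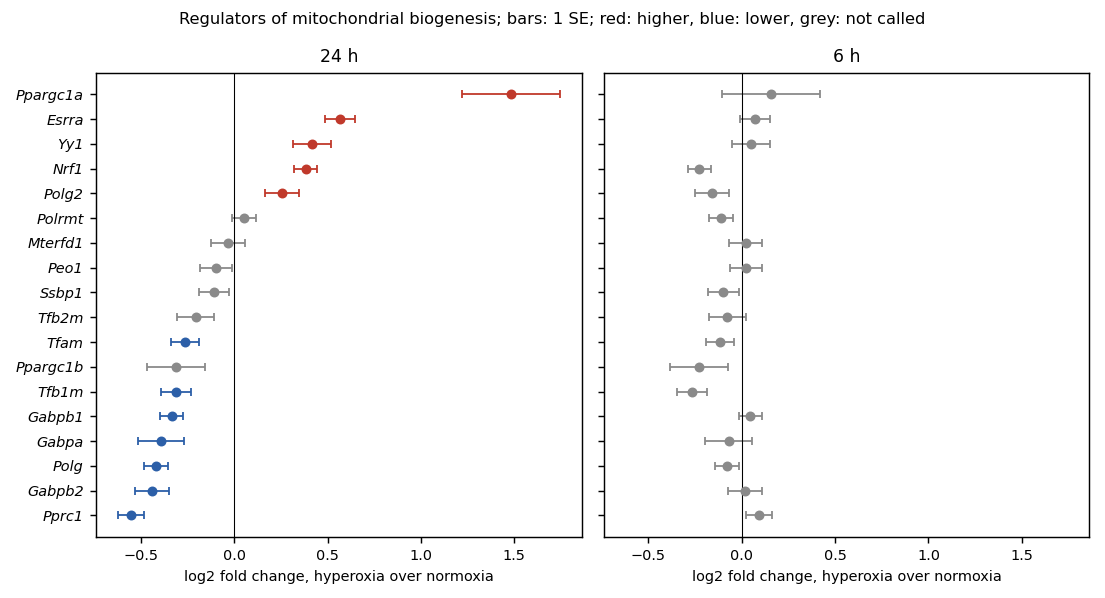
Log2 fold change of hyperoxia over normoxia (horizontal axis, bars 1 SE) for 18 regulators at 24 h and 6 h. At 24 h Ppargc1a stands at 1.48 and Pprc1 at -0.55; at 6 h no gene is called.

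Coenzyme Q synthesis and the other routes of electron entry held 3 higher and 5 lower genes of 19 at 24 h, against the same 15.5% and 12.8% of all genes. Coq10a and Coq10b, whose products bind coenzyme Q, rose by 0.80 ± 0.08 (limma adjusted p = 2.48e-06) and 0.48 ± 0.09 (limma adjusted p = 0.00136), and Etfdh, which passes electrons from fatty acid oxidation to coenzyme Q, by 0.40 ± 0.12 (limma adjusted p = 0.0177). Prodh, proline dehydrogenase, fell by 0.91 (SE 0.18) on the log2 scale, Coq2, which joins the ring and tail of coenzyme Q, by 0.55 (SE 0.08), and Pdss1, which makes the tail, by 0.43 (SE 0.10). Of 17 genes of the TCA cycle and pyruvate dehydrogenase, 2 rose (Sucla2 and Idh3g) and 2 fell (Pdhx and Fh1), by 0.20 to 0.32 in size. Of 13 carriers and inhibitors of ATP export and coupling, 2 rose, Slc25a27 by 0.62 ± 0.17 and Higd2a by 0.25 ± 0.07, and none fell. The shares of all genes beside both counts are the same 15.5% higher and 12.8% lower. Of 76 mitochondrial ribosomal proteins 6 rose and 9 fell, again against 15.5% and 12.8%, with a median of -0.01, the largest being Mrpl45 at 0.53 and Mrpl12 at -0.46. The call of Slc25a27 was lost under normexp background correction, with an adjusted p of 0.195. That of Higd2a was lost there too, and without hyperoxia 24 h replicate 2. Of 27 alternatives, 18 kept the call of Pdhx, 20 that of Idh3g, 24 that of Fh1 and 27 that of Sucla2.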

How the data were processed

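Total RNA from 16 samples was labelled with Cy3 and hybridised to one-colour Agilent arrays, per the labels' protocols. The deposited scanner files give, per the file headers, processed signal intensity, mean and background intensity and flags, from Agilent Feature Extraction 10.7.3.1 per the submitters' processing notes. The authors' deposited value table holds log2 values of 43891 of the 55681 probes, which correlated at 0.997 to 1 with the scanner values over probes; it served as an alternative.

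Log2 processed signal was reduced by each array's 75th percentile. Each gene name took its probe of highest mean signal, and was tested where at least 3 of the 4 arrays in some group had it well above background. limma 3.58.1 in R 4.3.3 fitted 1 mean per group over the 16 arrays, two-sided, with Benjamini-Hochberg adjustment over 25419 genes at 0.05. The same fit was also run on simulated data, with the outcome not given here. Precision is limited by 4 arrays per group. Array symbols can be old: RefSeq names Atp5f1, Atp5s, Atp5sl and Cox4nb as Atp5pb, Dmac2l, Dmac2 and Emc8.

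Values per array were given for defining subunits, isoforms and, per complex, the largest called changes; other lists gave up to 3 genes per direction. 1 gene is counted but not reported here by name. Members and lists were chosen with earlier results of these data known. Same-numbered arrays deviated together at 24 h (correlation of residuals 0.244 to 0.344 in 4 pairs) and in 3 of 4 pairs at 6 h (0.0863 in the other); the numbers are also the slide columns. The fit above has no pairs, and the replicate number entered as a block only among the alternatives. Alternatives covered background correction, scaling, filters, probe choice, blocks, array weights and leaving out each array.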

Additional observations from a re-analysis of the deposited data

Results flagged for a closer look

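With each gene read from its brightest probe, the effect of hyperoxia differed between 24 h and 6 h, by limma's test of the difference, for 3 members. These were Cox6a2 (-1.34), Ndufaf3 (0.52) and Cox6b2 (0.60), as log2 fold changes. In the related lists it differed for Ppargc1a (1.33), Coq10a (0.71), Nrf1 (0.61), Mrpl1 (0.51), Esrra (0.50), Mrps6 (0.47), Mrpl45 (0.45), Tmem70 (0.37), Sucla2 (0.28) and Sdhaf1 (0.26), and with the opposite sign for Prodh (-0.82), Pprc1 (-0.65), Coq2 (-0.52), Gabpb2 (-0.46), Mrpl12 (-0.43), Gabpb1 (-0.38), Mrpl35 (-0.34) and Polg (-0.34). Of these, Esrra, Pprc1, Coq10a, Coq2, Mrps6, Mrpl1 and Mrpl12 kept the call in 26 of 26 alternatives. Nrf1 kept it in 25 and lost it when all its probes were averaged (limma adjusted p = 0.138). Gabpb1 and Mrpl35 kept it in 25 each, Sucla2 in 23, Polg in 21 and Gabpb2 in 17. Ppargc1a kept it in 18, Tmem70 in 13, Sdhaf1 in 12, and Prodh and Mrpl45 in 10 each. Replicate blocks within each time ended the calls of Ppargc1a, Polg, Sucla2, Sdhaf1 and Tmem70, and a block over all arrays those of Sdhaf1, Tmem70 and Prodh.

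A single array stood apart from the other 3 of its group in 7 of 152 sets of values examined (38 members in 4 groups). By chance about 1 in 20 such sets would do so. The log2 levels were 5.78 for Atp5j2 in normoxia 6 h replicate 3, where the others were at 5.82, and -0.10 for Cox4i2 in hyperoxia 6 h replicate 3 (others 0.20 to 0.24). Ndufaf2 read 2.96 in normoxia 6 h replicate 1 (others 3.15 to 3.16). In normoxia 24 h replicate 3, Ndufs1 read 4.48 (others 4.61 to 4.63) and Ndufv1 5.51 (others 5.59 to 5.60). Uqcr10 read 5.69 in normoxia 24 h replicate 1 (others 5.56 to 5.57), and Uqcrq 6.60 in normoxia 6 h replicate 1 (others 6.44 to 6.47).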

How the results depend on the processing

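Of the 20 calls at 24 h, 10 were kept under every alternative, as were 22 of 46 over time in hyperoxia, 7 of 27 over time in normoxia and 2 of 3 between the times (Cox6a2 and Ndufaf3). Members higher at 24 h numbered 16, and 10 without a filter on dim probes. Leaving out 1 array gave 8 to 18 higher, and 3 to 5 lower. It was 8 without array 1 or array 2 of hyperoxia at 24 h or array 3 of normoxia at 24 h, and 10 without array 4 of normoxia at 24 h. The replicate block over all arrays gave 12 higher and 4 lower, and blocks within each time 14 and 4, which ended the calls of Ndufa9 and Ndufs3. Array weights called 1 member lower at 6 h. Over time in hyperoxia, quantile normalization and the authors' table gave 29 higher and 5 lower, and median centring 79 and 0 (30 to 56 and 2 to 3 leaving out 1 array). In normoxia they gave 9 and 8, and 72 and 0, normexp 13 and 3, array weights 44 and 3, no filter 0 lower, and single probes 2 lower (16 to 36 and 0 to 3 leaving out 1 array, 16 without normoxia 24 h replicate 1 or normoxia 6 h replicate 4 and 17 without normoxia 6 h replicate 3). The 1 lower call there, Sdhd, was lost without any 1 of normoxia replicates 2, 3 and 4 at either time, and hyperoxia 6 h replicate 2 or 3 left out gave 2 or 3 lower. For the difference between times, normexp gave 7 higher, 6 came from quantile normalization and from the authors' table, no filter gave 1, array weights 11 and single probes 4 higher and 3 lower (1 to 10 higher and 1 lower leaving out 1 array, 10 without hyperoxia 6 h replicate 3). Among values of single genes with a call in either fit, directions reversed for Cyc1 over time in hyperoxia under median centring (0.19). They also reversed for Atp5b over time in normoxia under quantile normalization and in the authors' table (-0.13 in each). The cause of these shifts was not tested. Of 7144 values of single genes and list counts under the alternatives, 6724 counted as unchanged. For single genes this meant the same side of the threshold, and a change of sign without a call in either fit also counted as unchanged. List counts could differ by up to 1.5-fold. Dim isoforms such as Ndufa4l2 have wide intervals.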
